A study of Drosophila melanogaster with 6 samples.

Results

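HP1 (heterochromatin protein 1) and Su(var) (suppressor of variegation) genes include those for proteins that pack repeat-rich DNA around fly centromeres into silent heterochromatin. Of 10 genes listed for this group, 8 were measured by a probe set that the platform annotation gives to 1 gene alone, out of 11982 genes in all. They were the HP1a gene (also written Su(var)2-5), HP1b, HP1c, HP6, HP4, Su(var)2-HP2, Su(var)3-7 and Su(var)2-10, with 10 probe sets between them. The H3K9 methyltransferase genes Su(var)3-9 and egg had no such probe set and were not analysed here.

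RNA was measured on 6 arrays of GFP-positive cells sorted from Drosophila melanogaster embryos that had been aged at 29 °C to between late stage 11 and early stage 12. The first genotype, twi-GAL4 UAS-2EGFP/UAS-jumu (3 arrays), expressed the forkhead factor Jumu under the twist driver of the mesoderm. The control genotype, twi-GAL4 UAS-2EGFP (3 arrays), carried the same driver and GFP reporter without UAS-jumu. The labels name no transgene in place of UAS-jumu in the control. They number the replicates but do not call them separate collections of embryos. The p-values therefore describe the spread of these arrays alone, and that spread may be technical.

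As background, heterochromatin in flies forms where lysine 9 of histone H3 is methylated, and HP1a binds that mark through its chromodomain. Through its chromoshadow domain HP1a pairs with itself and recruits partner proteins, among them the products of Su(var)2-HP2, Su(var)3-7 and HP4. Su(var) genes were named because their mutations relieve the patchy silencing of genes moved next to heterochromatin (position effect variegation). The gene jumu, also called Domina, has itself been described as a suppressor of variegation.

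The transgene was seen in the arrays: the jumu probe set had log2 signals of 13.63, 13.35 and 13.69 in the UAS-jumu arrays, against 11.35, 11.56 and 11.44 in the control arrays. All values below are log2 signals after quantile normalization between arrays, and a gene is said to have risen or fallen only where limma gave an adjusted p below 0.05 over all 18769 probe sets. In the same arrays, 9 of 10 measured mesoderm marker genes were above the controls without overlap. That order was held by 16.6% of all genes, and by 27.3% of genes with a mean log2 signal of at least 8.13. The mean log2 signal of the 10 mesoderm markers was 10.76 to 10.80 in UAS-jumu arrays and 10.05 to 10.09 in controls. The mesoderm driver gene twi was measured, with an adjusted p of 0.132 in limma, while tin and Mef2 were not. The 10 measured nervous system markers went the other way, with a mean of 10.34 in each UAS-jumu array against 11.14 to 11.25 in controls. Of these 10, 7 fell, against 1.71% of all genes. The 7 measured epidermal and tracheal markers averaged 8.25 to 8.30 in UAS-jumu arrays and 8.92 to 9.10 in controls, and 3 of them fell, against the same share of all genes. The 10 blood cell markers averaged 9.63 to 9.71 in UAS-jumu arrays and 8.19 to 8.64 in controls. Their members moved both ways: PPO1 and Pxn fell, while Hml and He, near background in controls, were above the controls in every UAS-jumu array without passing. The 3 endoderm markers averaged 8.83 to 8.93 in UAS-jumu arrays and 9.30 to 9.36 in controls. Among them hkb fell (log2 change -1.08), GATAe was at -0.06 with overlapping groups, and fkh at -0.22 did not pass. The 4 measured germ-line markers averaged 7.71 to 7.95 in UAS-jumu arrays and 7.19 to 7.53 in controls. Of these, bam rose, while ovo was below the controls in every UAS-jumu array without passing. Which cells gave the ovo signal was not tested. The part of these shifts in the results below was not tested, and in sorted cells measured in bulk, fewer cells of a type and less RNA per cell cannot be told apart.

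Among the 8 measured genes, Su(var)2-HP2 rose and HP6 fell in the UAS-jumu arrays, and the other 6 did not pass the test. The background was 1.61% of genes that rose and 1.71% that fell (at an unadjusted p below 0.05, 10.8% were higher and 11.7% lower). In 5 genes every UAS-jumu array was above every control array, namely HP1a, HP1c, HP4, Su(var)2-HP2 and Su(var)2-10, where 16.6% of all genes had that order. Among the 4925 genes with a mean log2 signal of at least 8.13, the mean of Su(var)3-7 and the lowest of the 8, the share was 27.3%. HP6 alone had every UAS-jumu array below every control, an order held by 17.5% of all genes and 28% of those 4925. In HP1b and Su(var)3-7 the groups overlapped. In the deposited values, before quantile normalization, HP1b too was above every control, by a mean of 0.03. The median log2 change of the 8 genes was 0.36, against -0.01 over all genes.

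**Figure D1:**
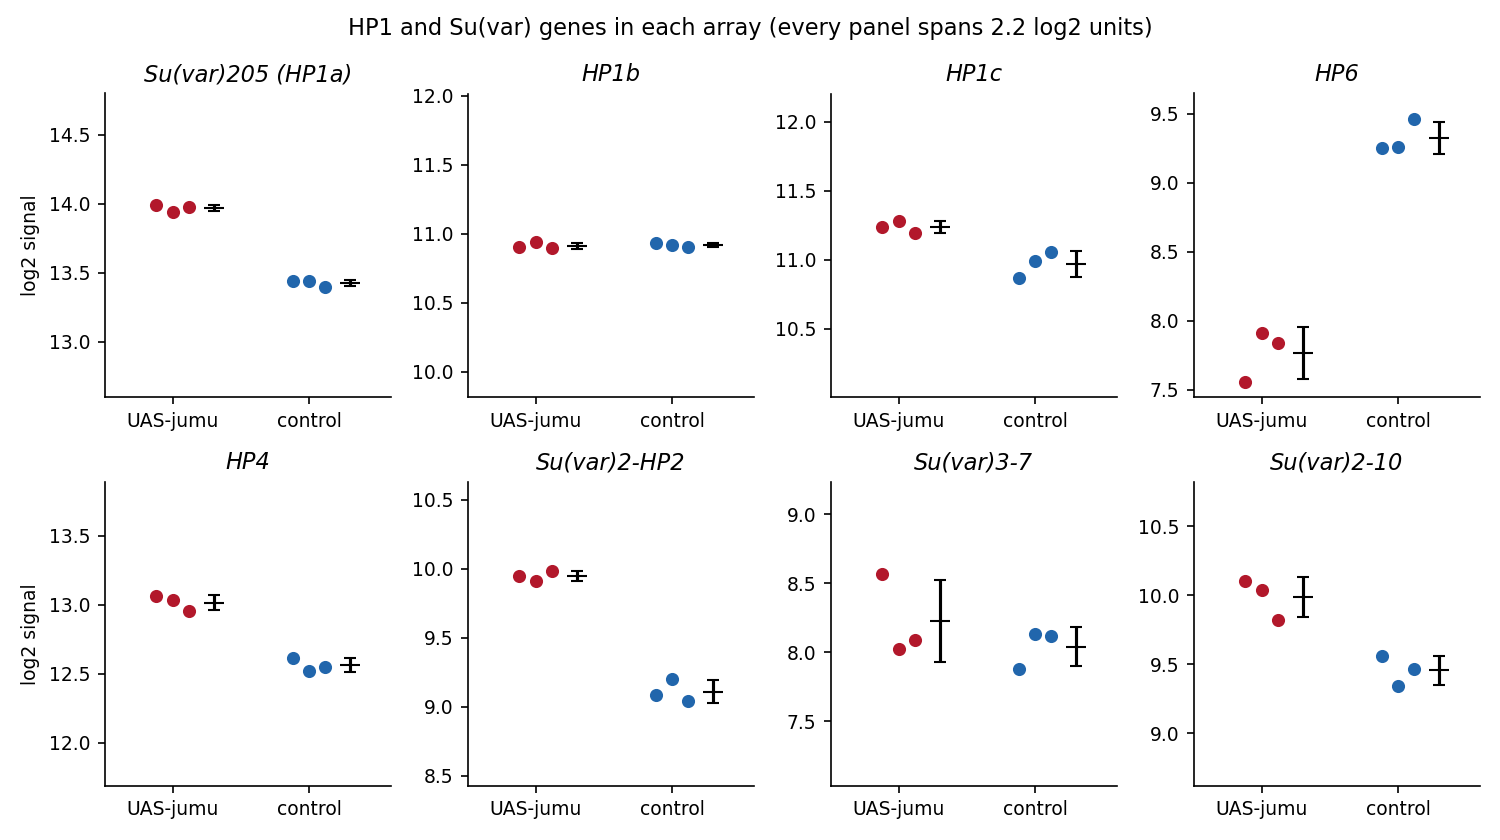
Log2 signal of the 8 measured HP1 and Su(var) genes in each array (points; UAS-jumu left in red, control right in blue), with the mean and SD of the 3 arrays beside them; every panel spans the same range. HP6 is lower in all 3 UAS-jumu arrays, Su(var)2-HP2 is higher in all 3, and HP1b lies at the same level in both genotypes.

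The HP1a gene, on chromosome arm 2L, had log2 signals of 13.99, 13.94 and 13.98 in UAS-jumu arrays, against 13.44, 13.44 and 13.40 in control arrays. The groups were 0.50 apart at their nearest arrays, while the SD within each group was 0.02. The log2 change was 0.54 ± 0.09 (SE, n = 3 per group), which is 1.46-fold, and limma's adjusted p was 0.0534, just outside the threshold. Limma draws each variance toward one shared by all probe sets, and the standard error was therefore larger than the replicates alone would give.

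HP1b and HP1c encode the other HP1 proteins of somatic cells that carry both a chromodomain and a chromoshadow domain. HP1b, found in both heterochromatin and euchromatin, had log2 signals of 10.90, 10.94 and 10.90 in UAS-jumu arrays and 10.93, 10.92 and 10.90 in control arrays. The genotypes overlapped completely, and the log2 change had a 95% interval of -0.23 to 0.22 (limma). HP1c, mainly a protein of euchromatin, had log2 signals of 11.24, 11.28 and 11.20 in UAS-jumu arrays and 10.87, 10.99 and 11.06 in control arrays. All 3 UAS-jumu arrays were higher, the nearest by 0.14, but the log2 change of 0.27 ± 0.10 (SE) did not pass (limma's adjusted p = 0.246).

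HP6, also called Umbrea, is a chromoshadow protein without a chromodomain, which arose as a copy of HP1b and is found at centromeres in Drosophila melanogaster. Its log2 signals were 7.56, 7.91 and 7.84 in UAS-jumu arrays, against 9.25, 9.26 and 9.46 in control arrays. The highest UAS-jumu array was 1.34 below the lowest control array. The log2 change was -1.56 ± 0.14 (SE, n = 3 per group; limma's adjusted p = 0.0245), leaving 34.0% of the control signal. With any 1 of the 6 arrays left out the log2 change stayed between -1.62 and -1.45, but the adjusted p was 0.0841 to 0.107. The replicate block gave an adjusted p of 0.238, median centring gave 0.150 at a log2 change of -1.28, and scaling to hybridization controls gave 0.103 at -0.98. Over all probe sets, 0 to 1 fell without 1 array and 0 fell in each of those other runs, so losing the call was not particular to HP6.

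In the RefSeq annotation (Release 6) HP6 lies inside dpy, the gene of a giant extracellular matrix protein of epidermis and trachea. The probe set of dpy had a log2 signal of 7.96 ± 0.04 in UAS-jumu arrays and 8.69 ± 0.12 in control arrays (SD, n = 3 each), so dpy fell as well, by less (log2 change -0.73 ± 0.11 SE, limma's adjusted p = 0.0442). This gene was looked up after the value of HP6 had been seen, and the part of dpy transcripts in the HP6 signal was not tested. The genes that overlap HP1a, Su(var)3-7 and HP1c (CG8419, TBC1D5 and CG17141) differed between genotypes by 0.05, 0.00 and 0.03 log2 units, with overlapping groups.

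Su(var)2-HP2, a large HP1a-binding protein that lies with HP1a on heterochromatin, was the one member that rose. Its log2 signals were 9.95, 9.91 and 9.98 in UAS-jumu arrays, against 9.09, 9.20 and 9.04 in control arrays. The nearest arrays of the genotypes were 0.71 apart, well beyond the SD of 0.04 in UAS-jumu arrays and 0.08 in control arrays. The log2 change was 0.84 ± 0.10 (SE, n = 3 per group; limma's adjusted p = 0.0331), or 1.79-fold. Leaving out any 1 array kept the log2 change between 0.80 and 0.88 with an adjusted p of 0.0910 to 0.129. The replicate block (adjusted p = 0.246), median centring (0.115) and scaling to hybridization controls (0.0672) also gave values above the threshold. Over all probe sets 255 rose in the main fit. Without 1 array 0 to 21 rose, with the replicate block 0, with median centring 20 and with hybridization controls 31. Losing the call in these runs was therefore not particular to Su(var)2-HP2.

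HP4, also known as Hip for HP1-interacting protein, had a pair of probe sets of very different brightness. The bright one gave log2 signals of 13.06, 13.03 and 12.95 in UAS-jumu arrays and 12.62, 12.52 and 12.55 in control arrays. These groups did not overlap, and the log2 change was 0.45 ± 0.09 (SE, limma's adjusted p = 0.0866). The dim probe set had 6.59, 6.45 and 6.26 in UAS-jumu arrays and 5.05, 2.72 and 5.19 in control arrays. It pointed the same way, but its control arrays spread over more than 2 log2 units (SD 1.38, n = 3), so its log2 change of 2.11 ± 0.73 (SE, adjusted p = 0.212) gives no usable size; without control replicate 2 the log2 change was 1.34.

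Su(var)3-7, a zinc-finger protein that binds HP1a and DNA, had the widest spread between UAS-jumu replicates of the 8 genes (SD 0.30). Its log2 signals were 8.56, 8.02 and 8.09 in UAS-jumu arrays and 7.87, 8.13 and 8.12 in control arrays. UAS-jumu replicate 1 stood above the other 5 arrays, which overlapped. The log2 change was 0.18 ± 0.19 (SE, limma's adjusted p = 0.684), and without UAS-jumu replicate 1 it was 0.01.

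Su(var)2-10 encodes the fly PIAS protein, an E3 ligase that attaches the small modifier SUMO to chromatin proteins. Its brighter probe set had log2 signals of 10.10, 10.04 and 9.82 in UAS-jumu arrays and 9.56, 9.34 and 9.47 in control arrays. The groups were separate, and the log2 change was 0.53 ± 0.13 (SE, limma's adjusted p = 0.110). The dimmer probe set had log2 signals of 9.44, 9.45 and 9.56 in UAS-jumu arrays and 9.36, 9.14 and 9.27 in control arrays. There the log2 change was 0.23 ± 0.11 (SE, adjusted p = 0.352), smaller than in the brighter probe set but in the same direction and again without overlap.

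**Figure D2:**
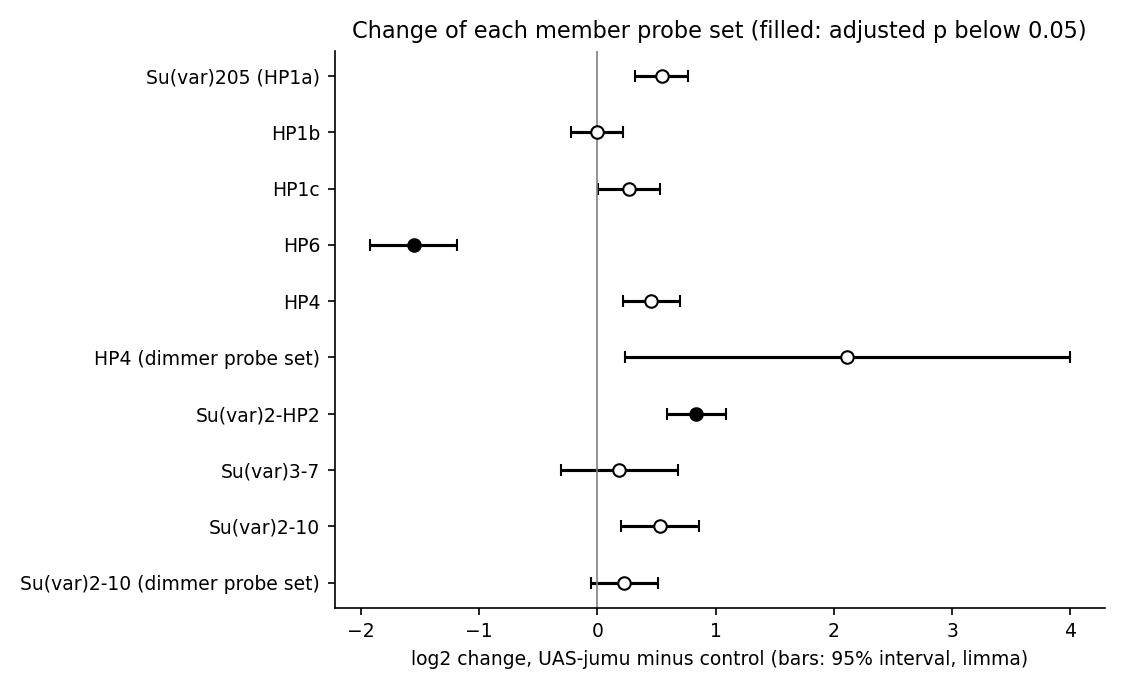
Log2 change (UAS-jumu minus control) of each of the 10 probe sets, with the 95% interval from limma; filled points have an adjusted p below 0.05. Su(var)2-HP2 lies at 0.84 and HP6 at -1.56, HP1b lies at 0.00, and the interval of the dim HP4 probe set runs from 0.23 to 3.99.

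How many of these genes passed depended on how limma estimated the spread. Spread between replicates was much smaller in bright probe sets than in dim ones, and the test above used 1 variance prior for all. With a prior that follows the signal level, HP1a, HP1c, HP4, Su(var)2-HP2 and Su(var)2-10 were all past the threshold as higher (5 of 8) and HP6 as lower (1 of 8). In that fit 10.3% of all genes were higher and 10.9% lower. Among the 4925 genes with a mean signal at or above that of Su(var)3-7, 1038 (21.1%) were higher and 1080 lower. Its adjusted p-values were 3.12e-08 for HP1a, 1.67e-06 for HP4, 0.000281 for Su(var)2-10, 0.00423 for HP1c, 7.69e-07 for Su(var)2-HP2 and 6.71e-08 for HP6. These 6 genes stayed past the threshold in that fit with any 1 array left out, a check added after seeing the data, and the highest adjusted p was 0.0290, for HP1c. HP1b and Su(var)3-7 did not pass in either fit.

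A difference between 2 genes within an array does not move when the whole array is shifted, though it does with quantile normalization. Each of the other 7 genes was set against HP1a in the same array. HP1b minus HP1a was -3.06 ± 0.04 in UAS-jumu arrays and -2.51 ± 0.01 in control arrays (SD, n = 3 each), so HP1b was lower relative to HP1a by 0.55 log2 units, with no overlap. HP1c minus HP1a was -2.73 ± 0.06 in UAS-jumu arrays and -2.46 ± 0.11 in control arrays, also without overlap. In the deposited values the HP1c groups overlapped on this measure, and the change was -0.12 against -0.27 after quantile normalization. HP6 minus HP1a was -6.20 ± 0.21 in UAS-jumu arrays and -4.10 ± 0.14 in control arrays, and Su(var)2-HP2 minus HP1a was -4.02 ± 0.02 in UAS-jumu arrays and -4.32 ± 0.07 in control arrays. In these 4 comparisons the exact two-sided permutation p was 0.1, the smallest that 3 arrays against 3 allow, and 0.175 after Benjamini-Hochberg adjustment over the 7 genes. HP4, Su(var)2-10 and Su(var)3-7 overlapped between genotypes relative to HP1a, with changes of -0.09, -0.01 and -0.36 log2 units. In the deposited values HP1b, HP6 and Su(var)2-HP2 were still separate, with changes of -0.39, -1.97 and 0.45. Only the changes are comparable here, since the level of a probe set cannot be set against that of another.

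**Figure D3:**
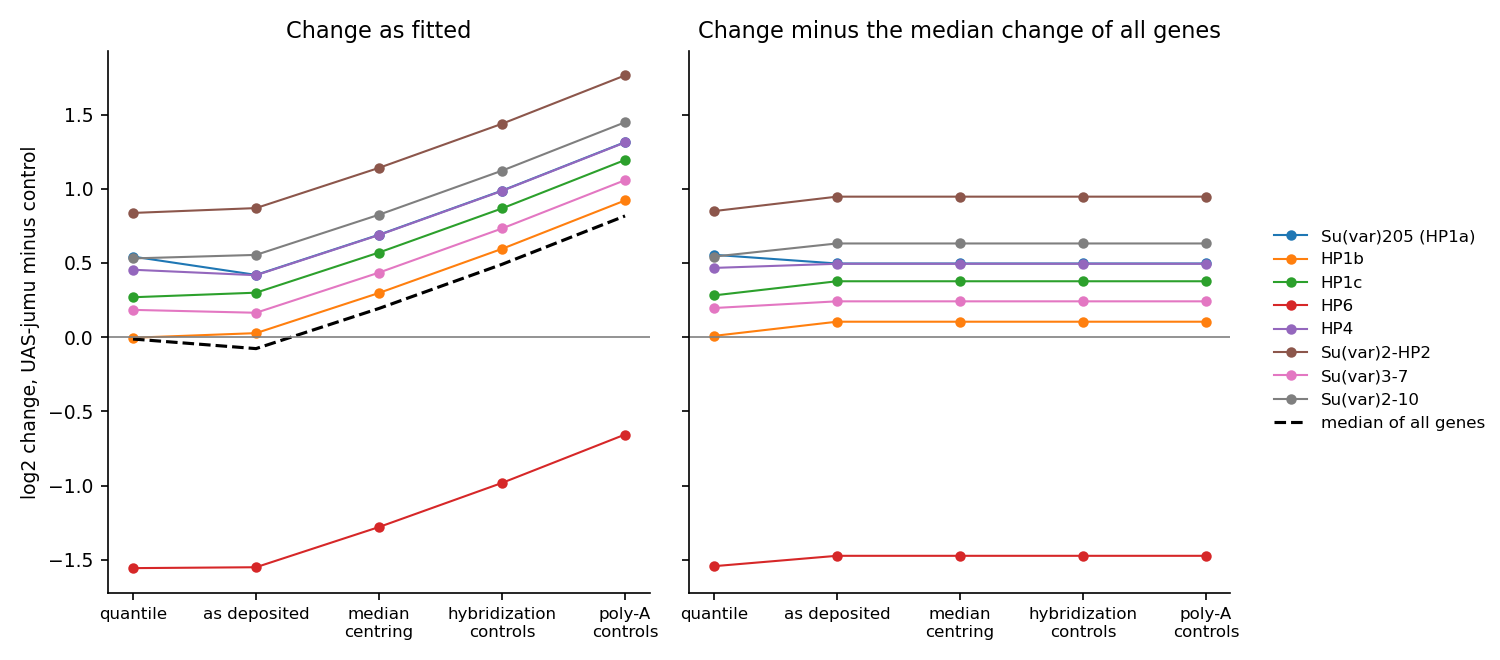
Log2 change (UAS-jumu minus control) of the 8 genes under 5 scalings of the arrays, as fitted (left, with the median of all genes dashed) and minus the median change of all genes (right). All changes shift upward together with the control-based scalings on the left, where the lines of HP1a and HP4 nearly coincide; on the right HP6 is at -1.54 with quantile normalization and -1.47 otherwise, the 4 other scalings being equal there by construction.

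The scaling of the arrays set the size of every change. The median change of all genes was -0.01 with quantile normalization and -0.08 as deposited, against 0.19 with median centring, 0.49 after shifting arrays to hybridization controls and 0.82 with scaling to poly-A controls. Under that last scaling HP6 was at -0.66 (limma's adjusted p = 0.0423) and Su(var)2-HP2 at 1.76 (adjusted p = 0.00668). Relative to the median gene HP6 was at -1.54 with quantile normalization and -1.47 with the other scalings, and Su(var)2-HP2 was at 0.85 with quantile normalization and 0.95 with the others. On that scale HP1b was at 0.01 with quantile normalization and 0.10 with the others. The other 4 scalings shift all genes of an array alike, so they give 1 value by construction and only quantile normalization differs from them. As fitted, HP6 had the largest change of the 8 with quantile normalization, as deposited and with median centring, but the smallest in size with scaling to poly-A controls. As fitted, HP1b was near 0 with quantile normalization and at 0.92 with scaling to poly-A controls, where it passed (adjusted p = 0.00743).

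The wider machinery of silencing was read from 60 other genes in 7 groups, of which 48 had a single-gene probe set. Both genes that rose encode subunits of the enzyme that activates SUMO, and 0 fell, against 1.61% and 1.71% of all genes. By limma's unadjusted p below 0.05, 20 of the 48 were higher and 1 was lower, against 10.8% and 11.7% of all genes. Among the 4925 genes with a mean log2 signal of at least 8.13, 811 were higher and 845 lower by that measure. Of the 48 genes, 37 (77.1%) had a positive change, with a median of 0.26, against 48.8% of all genes. In 26 (54.2%) every UAS-jumu array was above every control and in 4 (8.33%) every one was below. Of all genes 16.6% and 17.5% had these orders, and of the brighter genes 27.3% and 28%. With the variance prior that follows the signal level 24 were past the threshold as higher and 2 as lower, against 10.3% and 10.9% of all genes. Of the 4925 brighter genes 1038 (21.1%) were higher and 1080 lower in that fit. The sign of 2 genes turned in the deposited values, of 6 with median centring and of 10 with either control-based scaling.

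In the SUMO pathway, the system in which Su(var)2-10 acts, all 5 measured genes were higher in every UAS-jumu array than in any control after quantile normalization, and 4 of them also as deposited. After quantile normalization that order was held by 16.6% of all genes and 27.3% of genes with a mean log2 signal of at least 8.13. Aos1, a subunit of the SUMO-activating enzyme, had log2 signals of 11.85, 11.83 and 11.77 in UAS-jumu arrays, against 11.12, 11.10 and 11.12 in control arrays, and rose by 0.70 ± 0.09 (SE, limma's adjusted p = 0.0367). Uba2, the other subunit, had 12.88, 12.89 and 12.94 in UAS-jumu arrays, against 12.29, 12.28 and 12.17 in control arrays, and rose by 0.66 ± 0.09 (SE, adjusted p = 0.0421). The groups lay far apart in both genes. Both calls were lost with any 1 array left out (adjusted p 0.111 to 0.140 for Aos1 and 0.117 to 0.150 for Uba2), with the replicate block (0.251 and 0.257), with median centring (0.135 and 0.154) and with scaling to hybridization controls (0.0698 and 0.0736). As given for Su(var)2-HP2, few of all probe sets rose in these runs, so the loss was not particular to these genes. The SUMO protease gene Ulp1 was at 0.45 ± 0.11 (adjusted p = 0.109), velo, of the same protease family, was at 0.29, and the SUMO gene itself, Sumo (formerly smt3), was at 0.15. In the deposited values Sumo was at -0.10 with overlapping groups, so its direction depends on the scaling.

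Among the other HP1 family genes and partners of HP1a, 0 of 14 rose or fell and the median log2 change was 0.12. By limma's unadjusted p below 0.05, 5 were higher and 0 lower, against 10.8% and 11.7% of all genes. Of the 4925 brighter genes 811 were higher and 845 lower. Hmr, whose product acts with Lhr at centromeric heterochromatin, had a log2 signal of 10.22 ± 0.03 in UAS-jumu arrays and 9.64 ± 0.15 in control arrays (SD, n = 3 each), with no overlap, and sov, a gene needed for heterochromatin with HP1a, had 9.23 ± 0.12 in UAS-jumu arrays and 8.64 ± 0.13 in control arrays. Their adjusted p-values in limma were 0.0838 and 0.0891. The HP1c partner row was at 0.26 ± 0.09 (SE) and its partner woc at 0.16 ± 0.10 (SE), both with separate groups, beside HP1c at 0.27. Of the 14 changes 5 were negative. Among these, vig was lower in every UAS-jumu array than in any control, also as deposited (log2 change -0.25 ± 0.10 SE, limma's adjusted p = 0.262). The germ-line HP1 genes rhi and HP1e overlapped between genotypes, and HP1e was dim in both (mean log2 signal 3.58 in UAS-jumu arrays and 3.80 in control arrays).

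Of 5 measured genes for methylation of H3K9 and H4K20 and its removal, 0 passed (by limma's unadjusted p below 0.05, 1 was higher and 1 lower, against the same background). Hmt4-20, the H4K20 methyltransferase of heterochromatin, had a log2 signal of 10.24 ± 0.13 in UAS-jumu arrays and 9.65 ± 0.04 in control arrays (SD, n = 3 each; limma's adjusted p = 0.0713). JIL-1, the histone H3 kinase that keeps heterochromatin from spreading, was lower after quantile normalization, with 9.64 ± 0.06 in UAS-jumu arrays and 10.05 ± 0.13 in control arrays (adjusted p = 0.144), but its change was 0.19 with scaling to hybridization controls and 0.52 with scaling to poly-A controls. The groups were separate in both genes. The gene wde, the partner of the unmeasured egg, was at 0.04 ± 0.10 (SE) with overlapping groups.

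In the 4 remaining groups no gene passed in limma. By an unadjusted p below 0.05, 11 of 24 were higher and 0 lower, against 10.8% and 11.7% of all genes. Of the 4925 brighter genes 811 were higher and 845 lower. Among 7 genes of piRNA-guided nuclear silencing the median change was 0.31, with nxf2 at 0.57 ± 0.10 (SE, adjusted p = 0.0654) and cuff at 0.40 ± 0.10 (SE, adjusted p = 0.115); piwi overlapped between genotypes, with a log2 signal of 5.73 ± 0.63 in UAS-jumu arrays and 5.43 ± 1.05 in control arrays (SD, n = 3 each). Beside these genes, the germ-line markers bam and aub had log2 signals of 8.18 ± 0.17 and 8.59 ± 0.22 in UAS-jumu arrays against 6.84 ± 0.21 and 7.40 ± 0.29 in control arrays. The gene ovo, listed with these markers, went the other way, with 9.32 ± 0.20 in UAS-jumu arrays and 10.01 ± 0.12 in control arrays. The marker vas overlapped between genotypes. The cell type behind the ovo signal was not tested. The part of germ-line cells in the piRNA genes was not tested. Among 4 deacetylase and NuRD genes, HDAC1 was at 0.46 ± 0.09 (SE, adjusted p = 0.0836) and MTA1-like at 0.46 ± 0.12 (SE, adjusted p = 0.138). Among 5 chromatin assembly and remodelling genes, the remodelling ATPase gene Iswi was at 0.30 ± 0.10 (SE, adjusted p = 0.207) and the gene of the large CAF-1 subunit at 0.27 ± 0.18 (SE, adjusted p = 0.496). Among 8 genes for satellite DNA-binding proteins and other modifiers of variegation, the satellite-binding gene prod had a log2 signal of 11.37 ± 0.05 in UAS-jumu arrays and 10.68 ± 0.12 in control arrays (adjusted p = 0.0510), and D1 had 13.86 ± 0.04 in UAS-jumu arrays and 13.43 ± 0.05 in control arrays (adjusted p = 0.0909). Both satellite-binding genes were higher in every UAS-jumu array than in any control.

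**Figure D4:**
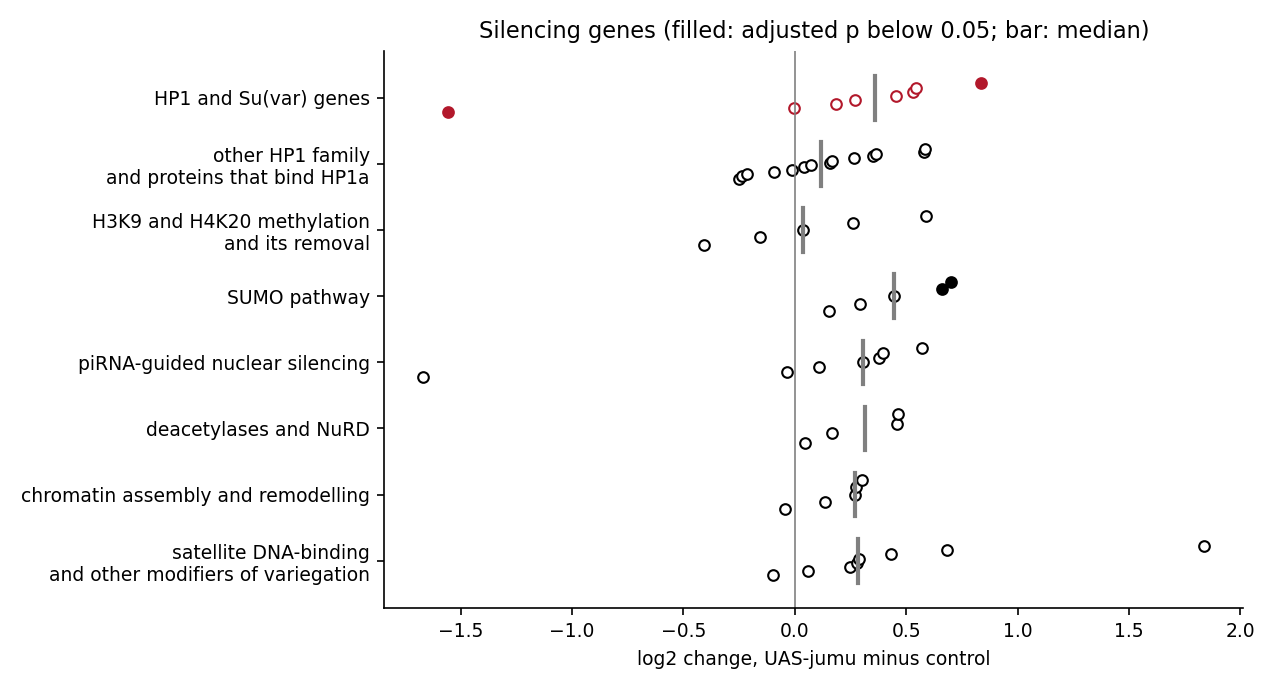
Log2 change (UAS-jumu minus control) of the 8 HP1 and Su(var) genes (red) and of 48 other silencing genes in 7 groups (black), 1 point per gene; filled points have an adjusted p below 0.05 and grey bars are medians. Aos1 and Uba2 of the SUMO pathway are the filled black points, at 0.70 and 0.66. The outlying open points are Parp1 at 1.84 and moon at -1.67, both dim probe sets that did not pass (limma's adjusted p = 0.124 and 0.438).

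The genes whose profile over the 6 arrays was most like that of a member were looked up among 6463 genes with a mean log2 signal of at least 6. For HP1a these were Nup35, APC4 and Cks30A, with Pearson's r of 0.998 for each, and for Su(var)2-HP2 they were Unr, Glt and E(bx), with r of 0.998, 0.996 and 0.996. For HP6 they were CG4511, CG6330 and glob1, with r of 0.998, 0.998 and 0.997. All 6 arrays fall into 2 genotypes, so a gene with a clear difference in the same direction can come out close. In all, 68, 56 and 34 genes had r above 0.99 with HP1a, Su(var)2-HP2 and HP6. The rank within those is a description only.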

How the data were processed

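RNA of sorted cells was measured on 6 arrays. Per the labels' protocols, 2 to 5 µg of total RNA were made into labelled cRNA. The authors used the Bioconductor package affy, per the submitters' processing notes; the sources used here give neither its version nor its settings. The deposited values were read as log2 signals, since they run from -1.73 to 16.4. Their array medians differed (5.09 to 5.64), so the log2 values were quantile-normalized between arrays. After removal of 183 control probe sets, limma 3.58.1 (R 4.3.3; lmFit, eBayes with its default prior) tested 18769 (two-sided, Benjamini-Hochberg over all, threshold 0.05). The fit was checked on simulated data. The prior had 0.94 degrees of freedom.

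Symbols of 13647 single-gene probe sets were updated through a RefSeq table, which matched 13544; a gene is represented by its brightest probe set. Without a stated genome build, coordinates and sequences are not printed. HP1a stands for the gene that RefSeq lists as Su(var)205. The members and gene lists were chosen with earlier results of these data known. Named were all members, other silencing genes past the threshold, the 2 with the smallest p in each group, and the 3 most alike genes; others were added after their values were seen. The number of arrays limits the precision.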

Additional observations from a re-analysis of the deposited data

How the results depend on the processing

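The counts moved strongly with the processing, and the cause was not tested. With median centring, scaling to hybridization controls or the replicate block, 0 members rose and 0 fell, and the same held without any 1 array. With scaling to poly-A controls 7 members rose and 1 fell; with dim probe sets left out, or a variance prior following the signal level (also robust, with the replicate block or with median centring, or in each fit without 1 array), 5 rose and 1 fell. Of the other silencing genes, 0 rose with median centring, hybridization controls, the replicate block or without any 1 array. The rises were 43 with poly-A controls and 18 without dim probe sets. With the trended prior 24 rose (24 robust, 24 with median centring, 23 with the replicate block, 19 to 21 without 1 array). Falls numbered 2 without dim probe sets and 2 with the trended prior. In variants of the trended fit, 3 fell when robust, 2 with the block, 2 without any 1 array and 0 with median centring. Over all probe sets, 255 rose and 264 fell. These counts were 20 and 0 with median centring, 31 and 0 with hybridization controls, 6805 and 119 with poly-A controls, 1241 and 1339 without dim probe sets, 1543 and 1553 with the trended prior (1539 and 1555 robust; 1465 and 1490 with the replicate block), 0 and 0 with the replicate block alone, and 0 to 21 and 0 to 1 without 1 array (1209 to 1428 and 1316 to 1389 with the trended prior). The trended prior with median centring gave 2043 rises and 314 falls.

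Same-numbered arrays did not deviate together (r -0.0118, 0.0026 and 0.00975 over all probe sets), so the numbers are not taken as pairs. Over probe sets with a mean log2 signal above 9, r was -0.0772, 0.0449 and 0.032, and differently numbered arrays ran from -0.114 to 0.0838. HP1b, near 0, turned positive with deposited values (0.027), median centring (0.30, with either prior), hybridization controls (0.60) and poly-A controls (0.92), and ran from -0.016 to 0.0036 without 1 array. Su(var)2-10 minus HP1a turned to 0.13 with deposited values and ran from -0.068 to 0.070 without 1 array. Array weights, or averaging the probe sets of each gene, left the member counts at 1 and 1. Of the 8 genes, the other 7 kept their direction in every alternative run.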
